A study of Mus musculus with 7 samples.

Results

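The 10 genes described here belong to the PIWI-interacting RNA (piRNA) pathway and were taken by symbol from the 55364 genes listed for the series: Piwil1, Piwil2, Piwil4, Mael, Tdrd1, Tdrd9, Mov10l1, Pld6, Asz1 and Tdrkh. RNA-seq had been performed on oocyte-like cells (mini-oocytes) that were induced from female mouse embryonic stem cells (mESCs; parental line BVSC H18, a 129/C57BL6 hybrid) in a flat culture without gonadal somatic cells. The 7 libraries fall into 3 groups. Cells carrying inducible Nobox, Figla, Tbpl2 and Lhx8 (4F) were sampled at day 7 (n = 2) and at day 21 (n = 3), and cells carrying these factors plus Stat3, Dynll1, Sub1 and Sohlh1 (8F) were sampled at day 21 (n = 2). The study describes the 8F cells as also carrying an Npm2-mCherry reporter cassette. In every group the factors were fused to a destabilization domain and stabilised with Shield-1, and stem cell factor and Y-27632, a ROCK inhibitor, were present. Shield-1 was still supplied at day 7 and was left out of the fresh medium from a later day, before day 21. Each library was made from 1000 pooled cells at day 7 and from 10 at day 21. Day, Shield-1 supply and number of pooled cells therefore changed together and cannot be told apart. The replicates are not labelled as separate cultures, so p-values measure only the spread between these libraries, which may be technical.

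PIWI proteins are Argonaute-family proteins that carry piRNAs, small RNAs of the germline that guide the silencing of transposons. Long single-stranded precursors are brought to mitochondria-associated granules and cut there, and Tudor-domain proteins hold PIWI proteins in these granules by binding their methylated arginines. Loss of the pathway sterilises male mice, whereas mouse oocytes, which also use endogenous small interfering RNAs against transposons, tolerate it. Among the members, Piwil1 (MIWI), Piwil2 (MILI) and Piwil4 (MIWI2) encode the PIWI proteins, Tdrd1, Tdrd9 and Tdrkh the Tudor-domain proteins, and Mov10l1, Pld6, Asz1 and Mael act on the precursors or in the granules.

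Levels are given in TPM, transcript numbers scaled to a fixed total per library and divided by exon length, so that genes can be set side by side within a library. Reads estimated from the TPM steps and exon lengths came to between 9506135 and 18027834 per library. The 8 oocyte markers checked (Zp1, Zp2, Zp3, Gdf9, Npm2, Zar1, Ooep and Padi6) were all at 1 TPM or more in every library. Their summed level was 9047 to 11022 TPM at day 7, 37663 to 42111 TPM in 4F at day 21 and 29336 to 29709 TPM in 8F. The 8 mESC markers summed to at most 359.7 TPM in any library and were likewise lowest at day 7 and highest in 4F at day 21. Their sums were 85.8 to 96.9 TPM at day 7, 243.0 to 359.7 TPM in 4F at day 21 and 137.2 to 177.7 TPM in 8F. Pou5f1, which oocytes express as well, made up the largest part at day 21. At their highest, Esrrb was at 44.3, Klf4 at 26.5, Tfcp2l1 at 24.7, Zfp42 at 21.9 and Sox2 at 3.59 TPM. Nanog was at or below 0.940 TPM and Tdgf1 at or below 0.0675 TPM. The 6 granulosa markers summed to 2.97 to 15.2 TPM. Kitl was at 1.94 TPM or more in every library. It was highest at day 7, at 7.03 TPM or more (256 and 217 estimated reads). Inhba reached 3.63, Foxl2 2.69, Fshr 2.53 and Cyp19a1 1.64 TPM, and Amh was at or below 0.318 TPM. The 6 spermatogenic markers summed to 3.90 to 35.3 TPM, most of it Ldhc (3.06 TPM or more in each library). Prm1, Tnp1 and Pgk2, which mark male germ cells after meiosis or late in it, were listed at 0 in every library. Prm2 was at 1.43 TPM in replicate 1 of 4F at day 21 and at 1.92 and 1.39 TPM in 8F (6, 10 and 7 estimated reads). Acrv1 reached 0.838 TPM in replicate 1 of day 7. The part of these markers in the results was not tested.

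The promoter windows that RefSeq gives for GRCm38.p6 run from 250 bases before to 50 bases after a start, and 9 of the 10 members had at least 1 (13 windows); Piwil2 had none in the table. Those of 5 members are printed, namely Tdrd1, Tdrkh, Mael and Mov10l1, which differed between groups, and Piwil1, which encodes a PIWI protein. The printed set is a choice. Asz1 and Tdrd9, which also differed between groups, and Piwil4, another PIWI gene, have windows that are not printed, and that of Asz1 holds no match. Capitals mark matches, on either strand, to the E-box word CACGTG, to the CCAAT box, to TAATTG, a word bound by NOBOX, and to MYB words, which are CAACTG or a form of it with T for the leading C (TAACTG), with G for its T (CAACGG) or with both exchanges (TAACGG). Matches on the minus strand are printed as their reverse complement, such as ATTGG for the CCAAT box and CAGTTG for a MYB word. Tdrd1 lies at chr19:56825959-56826258 (+), Tdrkh at chr3:94412994-94413293 (+), Mael at chr1:166238695-166238994 (-), Mov10l1 at chr15:88982744-88983043 (+) and Piwil1 at chr5:128735996-128736295 (+), each written 5′ to 3′ along the gene.
Tdrd1: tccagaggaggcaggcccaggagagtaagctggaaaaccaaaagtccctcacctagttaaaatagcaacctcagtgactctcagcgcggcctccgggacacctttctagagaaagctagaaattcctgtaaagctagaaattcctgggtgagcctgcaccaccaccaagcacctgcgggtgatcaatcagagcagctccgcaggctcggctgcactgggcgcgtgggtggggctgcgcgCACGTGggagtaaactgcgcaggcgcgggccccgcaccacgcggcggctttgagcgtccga
Tdrkh: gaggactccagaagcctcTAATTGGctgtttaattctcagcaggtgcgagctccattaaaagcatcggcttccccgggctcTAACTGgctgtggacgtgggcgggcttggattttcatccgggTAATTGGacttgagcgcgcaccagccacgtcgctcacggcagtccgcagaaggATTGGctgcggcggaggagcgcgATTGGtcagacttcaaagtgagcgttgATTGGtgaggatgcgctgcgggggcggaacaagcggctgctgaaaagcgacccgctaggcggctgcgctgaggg
Mael: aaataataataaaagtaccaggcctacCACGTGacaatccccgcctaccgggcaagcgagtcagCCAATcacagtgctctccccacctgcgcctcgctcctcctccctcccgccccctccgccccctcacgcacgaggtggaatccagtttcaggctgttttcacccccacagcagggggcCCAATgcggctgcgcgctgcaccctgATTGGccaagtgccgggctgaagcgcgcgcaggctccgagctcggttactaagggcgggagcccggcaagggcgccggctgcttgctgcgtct
Mov10l1: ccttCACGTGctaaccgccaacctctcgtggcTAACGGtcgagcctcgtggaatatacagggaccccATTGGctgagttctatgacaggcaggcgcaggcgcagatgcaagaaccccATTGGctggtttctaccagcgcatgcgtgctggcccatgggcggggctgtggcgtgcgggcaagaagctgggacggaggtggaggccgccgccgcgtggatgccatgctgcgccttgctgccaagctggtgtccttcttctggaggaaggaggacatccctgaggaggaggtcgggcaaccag
Piwil1: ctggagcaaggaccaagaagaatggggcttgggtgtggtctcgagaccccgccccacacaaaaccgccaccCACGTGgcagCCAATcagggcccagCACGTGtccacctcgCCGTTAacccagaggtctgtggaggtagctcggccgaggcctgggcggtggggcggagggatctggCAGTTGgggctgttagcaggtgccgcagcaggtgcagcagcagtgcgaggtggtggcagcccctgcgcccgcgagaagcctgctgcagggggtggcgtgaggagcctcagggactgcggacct

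CACGTG, the core of an E-box, lies in the first-listed window of 5 of the 9 members: Piwil1 and Tdrd9 hold 2 copies each, and Tdrd1, Mael and Mov10l1 hold 1. Counting the second start of Pld6, 6 members have it. It occurs in 7.15% of the 32851 RefSeq mouse promoter windows of this length, and in 10.9% of the 14281 windows with at least 10 CpG dinucleotides. In Tdrd1 the copy begins at position -11 from the start, and in Mov10l1 at position -246. TAATTG was found in Tdrkh alone among the members, with copies at positions -232 and -127, each of which overlaps a minus-strand CCAAT match and is printed with it as TAATTGG. It is present in 8% of all windows and in 3.92% of the CpG-rich ones. MYB words were present in 4 members (28.3% of all windows), CCAAT in 6 counting all starts (37.4%) and TATAAA in 2 counting all starts (13.6%). Neither the E2F words TTCCCGC and TTGGCGC (6.81%) nor the CRE word TGACGTCA (1.79%) was in any member's window. In the CpG-rich windows the shares were 23.9% for MYB words, 35.7% for CCAAT, 5.63% for TATAAA, 13.5% for the E2F words and 3.37% for CRE. All these shares are per window, whereas counts over all starts are per member. First-listed windows held 10 to 25 CpG dinucleotides against a median of 7 over all windows (quartiles 3 and 20). These matches describe letters only, and the start used in these cells cannot be read from gene-level values. For Piwil1 the window in RefSeq lies 33722 bases inside the gene as GENCODE draws it, so that an upstream start of Piwil1 is not covered by the printed window. From its reads, the study reported Piwil1 expression in mini-oocytes that is driven by a transposable element. The printed Piwil1 window may therefore not hold the start used in these cells, which was not tested here.

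**Figure D1:**
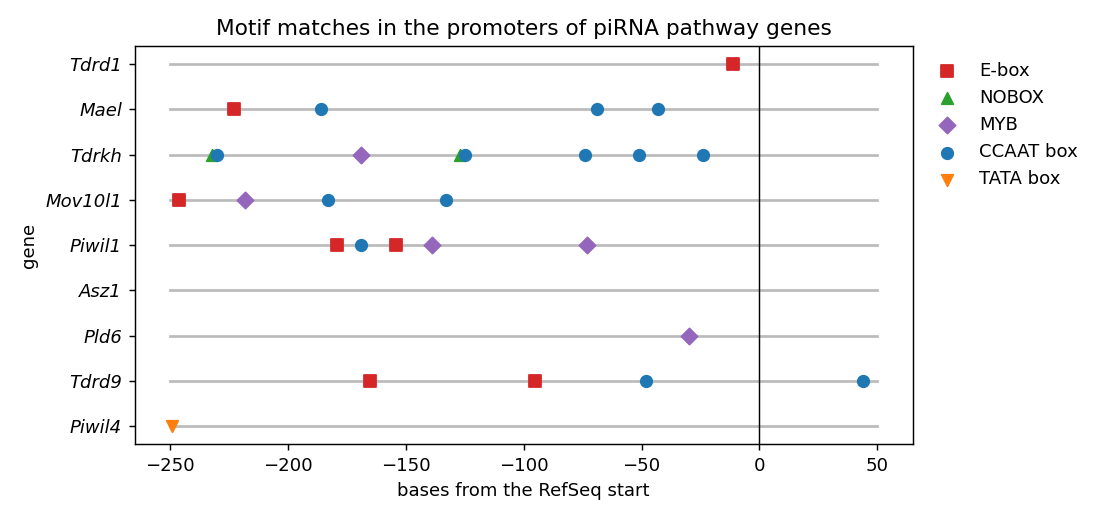
Position of motif matches in the first-listed RefSeq promoter window of 9 piRNA pathway genes; the horizontal axis gives bases from the start, grey lines span the window searched, and each symbol is 1 match. E-box matches appear in 5 genes, NOBOX matches in Tdrkh alone, and Asz1 has no match.

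Among the PIWI genes, Piwil2 was the most abundant in every library and Piwil4 was nearly absent. Piwil2 (ENSMUSG00000033644.5, chr14:70372477-70429383 in mm10, minus strand), whose protein MILI binds piRNAs in the cytoplasm, was at 32.7 and 27.3 TPM in 4F at day 7, at 49.0, 48.1 and 61.3 TPM in 4F at day 21 and at 37.2 and 45.5 TPM in 8F. All 3 libraries of 4F at day 21 were above the other 4, and 8F lay between the 4F days without overlap. Piwil1 (ENSMUSG00000029423.10, chr5:128702524-128755474, plus strand), which encodes the PIWI protein of meiotic and later male germ cells, was at 12.5 and 19.6 TPM at day 7, at 19.0, 23.0 and 21.7 TPM in 4F at day 21 and at 12.2 and 12.7 TPM in 8F. The 8F libraries were below 4F at day 21 without overlap, while the day 7 libraries overlapped 4F at day 21. The ratio of Piwil2 to Piwil1 ranged from 1.39 to 3.59 over the libraries and was above 1 in all 7. Piwil4 (ENSMUSG00000036912.18, chr9:14696230-14740733, minus strand), the nuclear PIWI protein of fetal male germ cells, was listed at 0 in 6 libraries and at 0.939 TPM, about 22 estimated reads, in replicate 2 of 4F at day 21. At 0, a level of up to 0.142 TPM remains possible in the shallowest library, from 3 reads of counting error. Piwil4 did not pass the filter of 1 TPM in at least 2 libraries and was not tested.

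Tdrd1 was the leading transcript of the set by a wide margin. Tdrd1 (ENSMUSG00000025081.13, chr19:56826209-56870012, plus strand), a scaffold of several Tudor domains that binds MILI, was at 301.2 and 289.9 TPM at day 7, at 510.9, 488.8 and 580.6 TPM in 4F at day 21 and at 501.6 and 510.4 TPM in 8F. All 5 libraries of day 21 were above both of day 7, and those of 8F lay within the range of 4F at day 21. By its mean, Tdrd1 ranked 257th of all 55364 genes at day 7, 180th in 4F at day 21 and 175th in 8F. Tdrkh (ENSMUSG00000041912.12, chr3:94413273-94434668, plus strand), a membrane-anchored Tudor and KH domain protein of the mitochondrial surface that takes part in trimming of piRNA 3′ ends, was at 49.7 and 56.4 TPM, at 96.4, 80.8 and 83.4 TPM and at 39.7 and 40.5 TPM in the same order of groups. The 3 groups did not overlap, with 4F at day 21 highest and 8F lowest. Of the 6142 exon bases of Tdrkh, 2255 (36.7%) are shared with Oaz3 on the opposite strand. Reads there cannot be assigned to either gene by counting without strand, and Oaz3 itself was at 8.54 to 21.8 TPM. Tdrd9 (ENSMUSG00000054003.13, chr12:111971559-112068854, plus strand), a Tudor-domain RNA helicase that works with MIWI2, was low, at 2.68 and 0.248 TPM, at 7.17, 4.63 and 8.54 TPM and at 4.75 and 3.17 TPM. Day 7 was below every library of day 21, and 8F and 4F at day 21 overlapped.

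Of the genes for precursor processing, Mael was the most abundant and Mov10l1 was the one with 8F farthest below 4F. Mael (ENSMUSG00000040629.8, chr1:166201201-166238747, minus strand), the Maelstrom protein of germ granules, was at 87.1 and 83.0 TPM at day 7, at 129.7, 148.6 and 144.5 TPM in 4F at day 21 and at 84.6 and 93.2 TPM in 8F. The 3 libraries of 4F at day 21 stood above the other 4, and 8F overlapped day 7. Mov10l1 (ENSMUSG00000015365.15, chr15:88982909-89055152, plus strand), the RNA helicase that feeds precursors to the cleavage step, was at 26.6 and 24.7 TPM, at 27.5, 27.0 and 13.4 TPM and at 5.37 and 8.40 TPM. Both 8F libraries were below all 5 of 4F, and replicate 3 of 4F at day 21 stood below the other 4F libraries.

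Pld6 and Asz1 differed more between the replicates of day 7 than most members did. Pld6 (ENSMUSG00000043648.7, chr11:59783897-59787645, minus strand), the mitochondrial nuclease that cuts precursors, was at 15.7 and 0.218 TPM (108 and 2 estimated reads) at day 7, at 7.17, 17.2 and 16.8 TPM in 4F at day 21 and at 25.4 and 23.0 TPM in 8F. Both 8F libraries were above all of 4F. Asz1 (ENSMUSG00000010796.11, chr6:18050964-18109061, minus strand), an ankyrin-repeat scaffold of the mitochondrial granule, was at 0.901 and 6.84 TPM (10 and 101 estimated reads), at 27.7, 22.8 and 12.6 TPM and at 6.31 and 13.2 TPM. Day 7 lay below 4F at day 21, and 8F overlapped both.

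**Figure D2:**
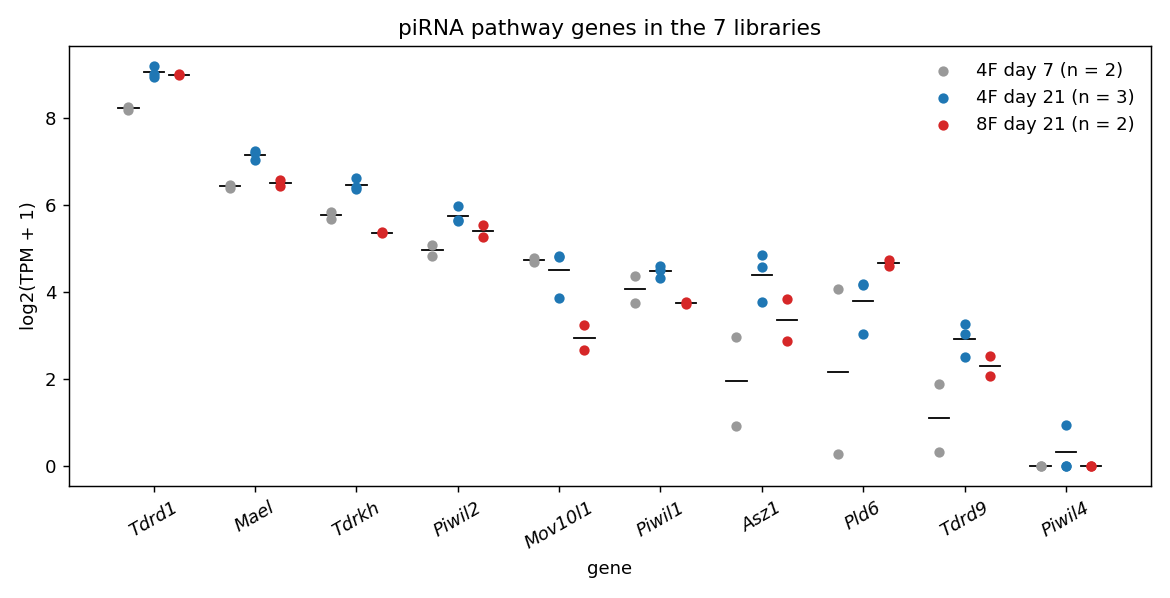
Level of each piRNA pathway gene as log2(TPM + 1); each point is 1 library and each black bar the mean of the log2 values in a group. Tdrd1 is highest in every group, Mael, Tdrkh, Piwil1 and Mov10l1 lie lower in 8F than in 4F at day 21, and the 2 day 7 libraries are far apart in Asz1, Pld6 and Tdrd9.

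The order of the levels was Tdrd1, Mael, Tdrkh and Piwil2 from the top in 4F on both days, with no overlap between neighbours in that order. Below these, Mov10l1 followed at day 7 without overlap, whereas at day 21 the libraries of Mov10l1, Piwil1, Asz1, Pld6 and Tdrd9 overlapped from neighbour to neighbour. In 8F the order was Tdrd1, Mael, Piwil2, Tdrkh and Pld6, where Piwil2 and Tdrkh overlapped, and Mov10l1 had moved to the eighth place. At day 7 the 10 levels added up to 518.6 ± 14.7 TPM (SD, n = 2). In 4F at day 21 the sum was 893.0 ± 43.5 TPM (SD, n = 3), and in 8F it was 733.5 ± 23.3 TPM (SD, n = 2). The sums did not overlap between groups. After median-of-ratios rescaling their means were 596.3 TPM at day 7, 807.0 TPM in 4F at day 21 and 670.1 TPM in 8F. The 10 most abundant of all genes took 28.5 and 31.8% of the TPM of a library at day 7. They took 10.2 to 11.5% in 4F at day 21 and 12.7 and 14.0% in 8F, and their part in these sums was not tested. Tdrd1 made up 56.7 to 61.6% of the sum in the 5 libraries of 4F and 68.1 to 70.0% in 8F. The ratio of Tdrd1 to Tdrkh was 5.14 to 6.96 in 4F and 12.6 in both 8F libraries, and that of Tdrd1 to Mov10l1 was 11.3 and 11.7 at day 7, 18.1 to 43.3 in 4F at day 21 and 60.8 and 93.3 in 8F. These ratios within a library do not depend on how libraries are scaled to each other. The plot of shares shows the larger part taken by Tdrd1 in 8F.

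**Figure D3:**
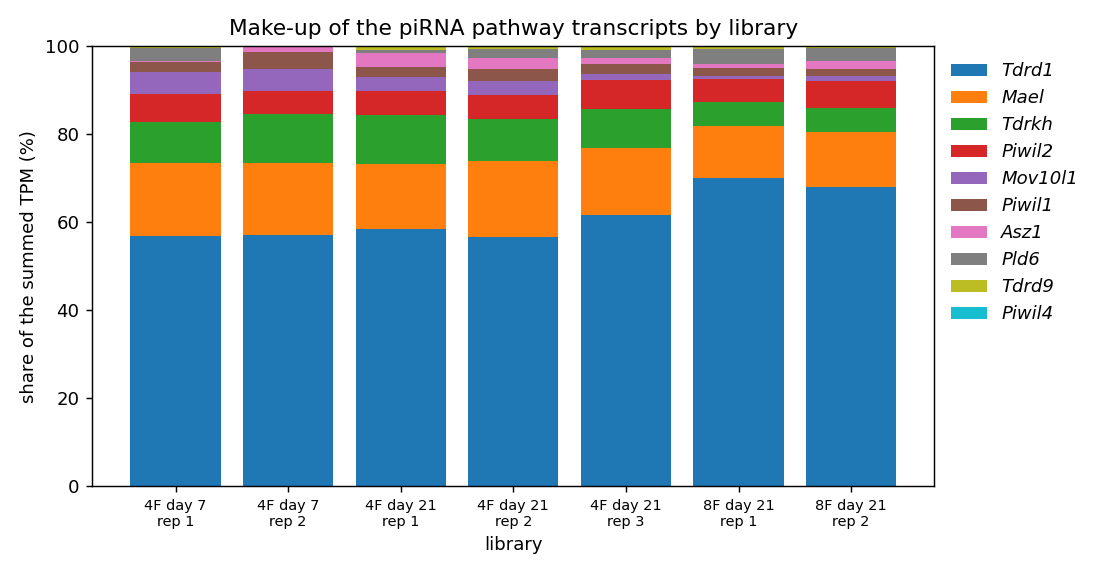
Share of each gene in the summed TPM of the 10 piRNA pathway genes, in percent, by library (bars from 0 to 100%). Tdrd1 takes 56.7 to 61.6% in 4F and 68.1 to 70.0% in 8F.

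The first comparison asked how 8F mini-oocytes differed from 4F ones in the pathway at day 21. Tdrkh and Mael were lower in 8F, Tdrd1 differed little, and no member was called higher. Mean Tdrkh in 8F was 0.461 times that in 4F (40.1 ± 0.586 TPM, SD, n = 2, against 86.9 ± 8.35, SD, n = 3), a log2 fold change of -1.09 (SE 0.13, adjusted p = 0.00778). Here and throughout, fold changes are on log2(TPM + 1), fitted by limma over all 7 libraries, with Benjamini-Hochberg adjustment over 21780 genes. Mean Mael was 0.631 times that in 4F, with a log2 fold change of -0.66 (SE 0.11, limma adjusted p = 0.0195). Mov10l1 had the most negative estimate, -1.54 (SE 0.36), and its limma adjusted p of 0.0503 just missed the threshold of 0.05; it was 0.0408 when genes had to reach 5 TPM in 2 libraries. For Tdrd1 the log2 fold change was -0.05, with a 95% interval from -0.31 to 0.20. The values for the other 5 tested members were -0.72 for Piwil1 (adjusted p = 0.137), -0.34 for Piwil2 (0.322), -1.04 for Asz1 (0.443), -0.63 for Tdrd9 (0.594) and 0.86 for Pld6 (0.710), by limma. None of these passed the test, and the interval for Pld6 ran from -1.60 to 3.33.

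Over the 9 tested members, 2 were called and both were lower, where 8.37% of all tested genes were called, 3.95% higher and 4.41% lower. Their median log2 fold change was -0.66 against 0.06 over all tested genes, and 8 of the 9 lay below the median of all genes. That number was 7 with quantile normalization, under which the fold change of Tdrd1 was 0.02. Mael lost its call with eBayes without trend (limma adjusted p = 0.103) and in voom on estimated reads (0.067). With the replicate number as a block, neither Tdrkh nor Mael was called by limma, where 0.753% of all tested genes were called. The calls of Tdrkh and Mael rested on 2 libraries of 8F, and leaving out either left 1 in that group. The log2 fold change of Mael was then -0.59 without replicate 1 and -0.73 without replicate 2. That of Tdrkh stayed between -1.14 and -0.96 over all alternative settings. Without replicate 2 or 3 of 4F at day 21 the limma adjusted p of Mael became 0.0553 and 0.0569, and without replicate 3 that of Mov10l1 became 0.0292 at a log2 fold change of -1.87. The 4F columns of the deposited table hold up to 9 decimals and the 8F columns up to 17. The set of factors, the cell line with its reporter and the writing of the columns therefore cannot be told apart. The summed oocyte markers were lower in 8F too, as given with the marker levels, but not gene by gene: of the 8, Padi6, Npm2, Zp1 and Zp2 were lower without overlap, Gdf9 and Zar1 were higher without overlap, and Zp3 and Ooep overlapped. Their part in these differences was not tested. Oaz3, which overlaps Tdrkh, was at 13.1 to 18.3 TPM in 4F at day 21 and at 16.0 and 21.8 TPM in 8F.

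The second comparison, day 21 against day 7 in 4F, asked how the pathway changed over the culture. Of the 9 tested members 6 rose and none was called lower. Mean Tdrd1 was 1.78 times higher at day 21 (526.8 ± 47.9 TPM, SD, n = 3, against 295.5 ± 8.00, SD, n = 2), a log2 fold change of 0.83 (SE 0.11, limma adjusted p = 0.00133). Rises of similar size were fitted for Piwil2 (0.79, adjusted p = 0.0123), Mael (0.72, 0.00266) and Tdrkh (0.70, 0.00581) by limma. Asz1 (2.44, limma adjusted p = 0.0275) and Tdrd9 (1.83, 0.0403) had larger estimates from low and uneven day 7 levels. The estimates for Piwil1 (0.41, limma adjusted p = 0.223), Pld6 (1.62, 0.257) and Mov10l1 (-0.24, 0.635) did not pass.

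In this comparison 40.6% of all tested genes were called, 25.3% higher and 15.3% lower, and the members' median of 0.79 stood against 0.17 over all genes. The scale mattered here. The median of all genes moved to -0.06 after median-of-ratios rescaling, to 0.04 after quantile normalization and to -0.32 in limma voom on estimated reads, and the share of calls over all genes that were higher moved from 62.3% to 48.4, 52.0 and 37.5%. Relative to the median of all genes, the members' median was 0.62 as deposited and 0.52, 0.31 and 0.60 under these scalings, and 8 of the 9 members lay above it under each. Tdrd1 passed the limma test under all 3, with fold changes of 0.48, 0.35 and 0.29. The number of members called fell from 6 (66.7%) to 2 (22.2%, Tdrd1 and Mael), 3 (33.3%, Tdrd1, Tdrd9 and Asz1) and 1 (11.1%, Tdrd1). Of all tested genes 39.6, 38.4 and 41.1% were called under these scalings, so the share of the members was below that of all genes under each. Piwil1 turned to -0.15 in voom. Asz1 had a log2 fold change of 1.42 (limma adjusted p = 0.147) without replicate 1 of day 7 and lost the call as well without replicate 1 or 2 of 4F at day 21 or either 8F library, with limma adjusted p between 0.0655 and 0.0789. Tdrd9 was at 1.05 (0.159) without replicate 2 of day 7 and lost the call without replicate 1 or 3 of 4F at day 21 or either 8F library, with limma adjusted p between 0.0891 and 0.0952. Pld6 ranged from -0.27 without replicate 2 of day 7 to 3.51 (limma adjusted p = 0.0119) without replicate 1, and without replicate 2 Piwil2 lost its call (0.0669) and Piwil1 gained one (0.0461). The summed oocyte markers were higher at day 21 as well, as given with the marker levels, and their part in the rise was not tested. In bulk RNA, fewer cells that express a gene and less of its RNA per cell cannot be told apart.

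The third comparison set 8F at day 21 beside 4F at day 7 and shares its libraries with the other two. Tdrd1 was higher, at a log2 fold change of 0.77 (SE 0.12, limma adjusted p = 0.0031), and Mov10l1 was lower, at -1.78 (SE 0.40, limma adjusted p = 0.0137). The mean of Mov10l1 was 6.89 TPM in 8F (SD 2.14, n = 2) against 25.6 TPM in the day 7 libraries (SD 1.38, n = 2). Mael was at 0.06 (limma adjusted p = 0.718), where day 21 of 4F was 0.72 above day 7. Tdrkh was at -0.39 (limma adjusted p = 0.0696), and it passed the limma test as lower under the 3 other scalings, at -0.72, -0.90 and -0.80. Piwil2 (0.45, limma adjusted p = 0.117), Piwil1 (-0.31, 0.404), Tdrd9 (1.19, 0.179), Asz1 (1.40, 0.188) and Pld6 (2.48, 0.132) did not pass.

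These 2 calls among 9 members compare with 37.2% of all tested genes called in this comparison, 24.2% higher and 13% lower, and the members' median was 0.45 against 0.24 over all genes. Over all genes the share of calls that were higher moved from 65.1% to 51.3, 51.1 and 47.5% under median-of-ratios, quantile and voom scaling. The call of Tdrd1 missed the threshold under quantile normalization (0.37, limma adjusted p = 0.0546), and Mael turned to -0.49 (0.0219) there. The call of Mov10l1 was lost without any 1 of the 4 libraries compared, with limma adjusted p of 0.0779 and 0.0625 without a day 7 library and of 0.107 and 0.0537 without an 8F library. Without replicate 1 of day 7 Pld6 (4.37, limma adjusted p = 0.00858) and Tdrd9 (1.97, 0.0456) gained a call, and without replicate 2 Asz1 did (2.42, 0.0485).

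**Figure D4:**
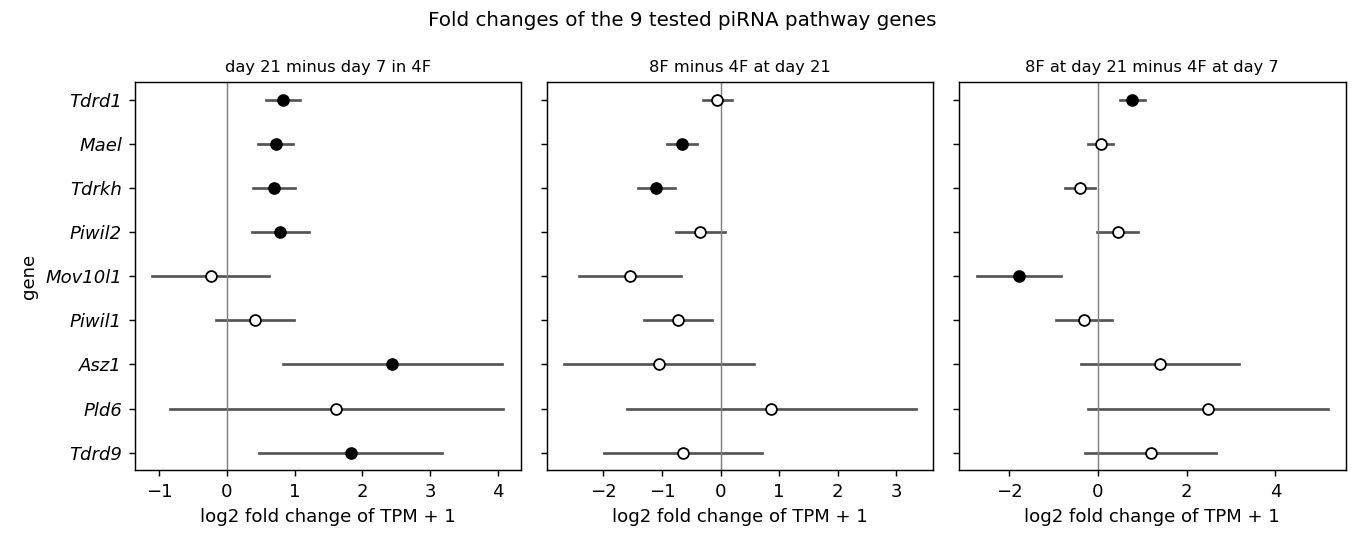
Log2 fold change of TPM + 1 for the 9 tested piRNA pathway genes in the 3 comparisons; points are limma estimates, lines their 95% intervals, and filled points passed an adjusted p of 0.05. In 4F, 6 genes are filled and to the right of 0 for day 21 against day 7; Tdrkh and Mael are filled and to the left for 8F against 4F at day 21.

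A wider list of 22 genes of the pathway was also followed, of which 21 were tested; Btbd18, a nuclear factor for piRNA precursor transcription, stayed at or below 0.425 TPM. In 8F against 4F at day 21, 3 of the 21 (14.3%) were called, all lower, where 8.37% of all tested genes were called and 4.41% were lower. They were Morc1 (-1.27, limma adjusted p = 0.0197), a nuclear ATPase of transposon silencing, Tex15 (-1.22, 0.0211), which is needed for piRNA-directed DNA methylation of transposons, and Ddx4 (-0.90, 0.0198), the Vasa RNA helicase of germ granules. Ddx4 was at 193.4, 185.7 and 237.3 TPM in 4F at day 21 and at 107.4 and 111.3 TPM in 8F, with no overlap. The list's median was -0.23 against 0.06 over all genes. Leaving out either 8F library left 1 in that group. Over all alternative settings the log2 fold change stayed between -1.42 and -1.07 for Morc1, between -1.41 and -1.02 for Tex15 and between -0.96 and -0.75 for Ddx4. Without replicate 1 or 2 of 4F at day 21, or with eBayes without trend, 1 of the 21 was called by limma. Of all tested genes 4.33, 4.24 and 4.56% were called in these settings. With the replicate number as a block, 0 of the 21 were called, where 0.753% of all tested genes were.

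Between day 7 and day 21 in 4F, 10 of the 21 (47.6%) were called, 8 higher and 2 lower, where 40.6% of all tested genes were called, and the list median was 0.31 against 0.17 over all genes. The split depended on the scale: it was 5 higher and 3 lower after median-of-ratios rescaling, 5 and 5 after quantile normalization and 5 and 6 in voom. Among the called genes the largest changes were a fall of Wdr77 (-2.89, limma adjusted p = 0.00274), the partner of the arginine methyltransferase Prmt5, and rises of Tdrd5 (1.95, 7.83e-05), a Tudor protein of precursor processing, Morc1 (1.89, 0.000802), Dnmt3c (1.80, 0.00306), a DNA methyltransferase for young transposons, and Gtsf1 (1.61, 0.000968), a zinc-finger cofactor of PIWI proteins. Tdrd6 (1.58, limma adjusted p = 0.0205), Tex19.1 (1.03, 0.033) and Ddx4 (0.81, 0.0058) passed as higher too. Tdrd6 was low, at 0 and 0.542 TPM at day 7 and at 3.17, 3.00 and 2.06 TPM in 4F at day 21. Tex19.1 passed in 6 of 17 other settings and was at 0.44 (limma adjusted p = 0.289) under quantile normalization, and Ddx4 was at 0.47 (0.0518), 0.18 (0.369) and 0.26 (0.212) under median-of-ratios, quantile and voom scaling and did not pass there. Tdrd5 was at 105.8 and 125.0 TPM at day 7 and at 448.8, 429.9 and 463.9 TPM at day 21, and Gtsf1 was at 157.1 and 182.5 TPM and at 415.0, 568.8 and 594.1 TPM. Both genes were above their day 7 levels in every library of day 21. Wdr77 was at 18.1 and 10.7 TPM at day 7 and at 0.515, 0.999 and 1.72 TPM at day 21. It shares 1389 of 4841 exon bases with Gm42890 on the same strand. On the opposite strand it shares 337 with Atp5pb, which was at 50.1 to 91.2 TPM over the libraries. Tdrd5 shares 176 of 6937 exon bases with 4930518J20Rik on the opposite strand. Under median-of-ratios, quantile and voom scaling the list's median turned to -0.03, -0.13 and -0.20.

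In 8F at day 21 against 4F at day 7, 7 of the 21 (33.3%) were called, 4 higher and 3 lower, where 37.2% of all tested genes were called, and the list's median of 0.11 lay below the 0.24 of all genes. Tdrd6 (2.51), Tdrd5 (1.71), Gtsf1 (1.58) and Dnmt3c (0.97) were higher, and Wdr77 (-3.01), Tex15 (-1.43) and Gpat2 (-1.31), a mitochondrial protein of the acyltransferase family, were lower, by limma. The estimate for Tdrd6, near 0 TPM at day 7, ran from 1.07 with a pseudocount of 5 TPM to 5.49 in voom. Dnmt3c was near the threshold (limma adjusted p = 0.0478) and passed in 3 of the 10 alternatives other than left-out libraries. Ddx4 was at -0.08 (limma adjusted p = 0.721). Under median-of-ratios, quantile and voom scaling the calls split into 3 higher and 5 lower, 3 and 7, and 3 and 5, and the list's median changed sign to -0.21, -0.39 and -0.29.

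**Figure D5:**
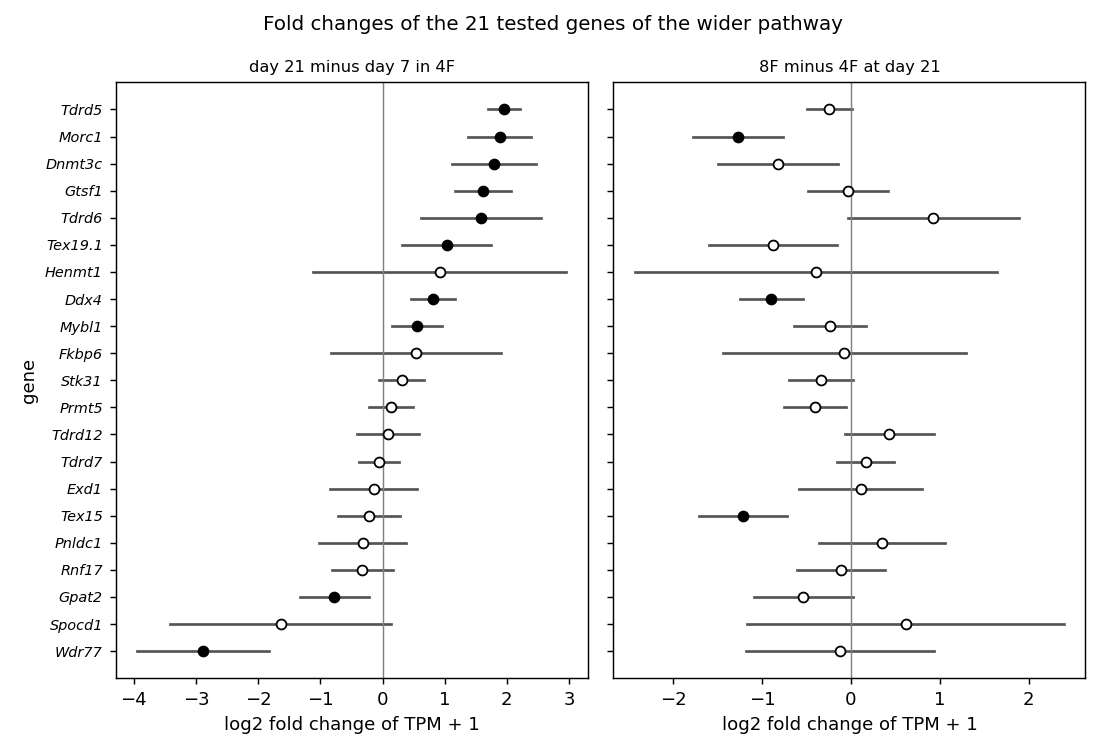
Log2 fold change of TPM + 1 for the 21 tested genes of the wider piRNA pathway list, with day 21 against day 7 in 4F on the left and 8F against 4F at day 21 on the right; points are limma estimates, lines 95% intervals, and filled points passed an adjusted p of 0.05. On the left 8 genes are filled to the right of 0 and 2 to the left; on the right 3 are filled, all to the left.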

How the data were processed

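Transcript levels of 7 libraries were read from the table of TPM values that the authors deposited. As the study's methods describe, reads from a SMART-seq stranded kit were trimmed with Trim Galore and aligned with HISAT2 to mm10, rRNA reads were removed, and unique hits were counted by featureCounts, without strand and with fractions for shared exons, on GENCODE vM25 genes; libraries came from NovaSeq instruments with different read lengths, not named per library. The study tested counts; only the TPM table was used here, so log2(TPM + 1) was fitted in limma 3.58.1 (R 4.3.3; trended eBayes, two-sided, 3 groups, no block), over genes that reached 1 TPM in 2 or more libraries, with Benjamini-Hochberg adjustment at 0.05. The fit was tested on simulated data. Reads were estimated from the TPM steps and GENCODE vM21 exon lengths; 75.6 to 80.8% of low values came out whole within 0.02 read. The estimates' floor of 3 reads covers counting error only. Named were all members, Ddx4 and at most 8 called genes of the wider list per comparison, by size. Alternatives were other pseudocounts, filters, scalings, fits and left-out libraries. Replicates of a group differed by more than sampling noise (chi-square per degree of freedom 9.67 to 35.3), so none was counted as a duplicate. The members and lists were chosen with earlier results of these data known.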

Additional observations from a re-analysis of the deposited data

How the results depend on the processing

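For 8F against 4F at day 21, the number of members called, 2, became 1 with eBayes without trend, 1 with voom on estimated reads and 3 with the filter of 5 TPM in 2 libraries, where Mov10l1 gained a call, and ranged from 0 to 2 when a library was left out; for the wider list, 3 became 1 without trend and ranged from 0 to 3. With the replicate number as a block, 0 members and 0 genes of the wider list were called by limma (4 and 5 at an unadjusted p under 0.05), and 164 of all genes in place of 1822. Deviations from the group means correlated between -0.037 and 0.011 in same-numbered libraries and between -0.021 and 0.037 in the others. In a group of 2 the deviations mirror each other, so these values cannot decide whether the numbers pair samples. Without trend 994 of all genes were called, without an 8F library 306 or 357, and without a 4F day 21 library 924 to 1021. For day 21 against day 7 in 4F, the 6 members became 2, 3 and 1 under median-of-ratios, quantile and voom scaling. They became 4 with no filter, with only the 2 groups compared or with the replicate block. With a pseudocount of 0.1 TPM they became 5, and without a library of 4F at day 21 they became 4 or 5. The 10 genes of the wider list became 6 with no filter on low values and 8 or 9 without a library of 4F at day 21. Of all tested genes 40.6% were called in the main fit. That share was 22.6% with no filter, 32.3% with only the 2 groups compared, 33.2% with the replicate block and 39.5% with a pseudocount of 0.1 TPM. Without a library of 4F at day 21 it was 36.9 to 38.2%. For 8F at day 21 against 4F at day 7, 2 members became 1 to 3 without a library, and the log2 fold change of Mael, 0.06, reversed to -0.27, -0.49 and -0.32 under median-of-ratios, quantile and voom scaling and ranged from -0.0072 to 0.13 without a library; that of Ddx4, -0.08, ranged from -0.24 to 0.071 without a library. Signs also turned for Tdrd1 in 8F against 4F at day 21 (-0.05; 0.022 under quantile normalization, 0.018 with the replicate block, 0.10 in voom, -0.11 to 0.018 without a library) and, for day 21 against day 7, for Piwil1 in voom (-0.15), Mov10l1 (0.086 with the replicate block, -0.41 to 0.086 without a library) and Pld6 (-0.27 to 3.51 without a library). Of the 13 values with a turned sign, that of Mael under quantile normalization alone passed the limma test. Of all calls for 8F against 4F at day 21, 47.3% were higher, against 62.8% in voom and 61.1% without trend. After median-of-ratios rescaling the members summed to 596.3 TPM at day 7, 807.0 in 4F at day 21 and 670.1 in 8F. The cause of these shifts was not tested. Over the named genes and alternatives, 668 values kept direction and side of the threshold, 11 gained and 90 lost a call, and 13 reversed. Where leaving out a library left 1 in a group, that library was assumed to vary like the other groups. Groups of 2 and 3 libraries limit every test, and Pld6, Asz1 and Tdrd9 rest on at most 108 estimated reads in any day 7 library.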
